A study of Drosophila melanogaster with 4 samples.

Results

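The trypsin gene cluster of Drosophila melanogaster was examined in larvae trisomic for 2L, the left arm of chromosome 2, and in normal larvae. Its members were taken by gene name from the deposited table of autosomal genes: alphaTry, betaTry, gammaTry, deltaTry, epsilonTry, zetaTry, etaTry, thetaTry, iotaTry and lambdaTry, 10 of 14161 genes in all. Each has a single row in the table and lies on 2R, the other arm of chromosome 2, so the extra copy of 2L adds none of them. The files name the arm and give no positions.

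Total RNA from whole larvae of the third instar, grown at 25 degrees, was sequenced in 4 groups: trisomy 2L females, normal females, trisomy 2L males and normal males. The labels name 4 biological replicates in each, and the design text calls the normal stock Cantons. The genetic make-up of the trisomic larvae, beyond the extra 2L, and the exact age within the instar are not stated in the labels, so stock and stage cannot be told apart from karyotype. The values are the authors' mean CPM (counts scaled to a common library total) of each group. Values of single replicates are not part of these tables and the depth is unknown, so every difference given is one of size between 2 means with no error, test or p-value. The fat body genes for larval serum proteins Lsp1alpha, Lsp1beta, Lsp1gamma and Lsp2 stood between 2111 and 24799 CPM in every group, and this tissue is known to make them at this stage.

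Trypsins are secreted serine endopeptidases that cut proteins after lysine or arginine. In insects the midgut epithelium makes them as inactive precursors, and removal of a short leading peptide in the gut lumen releases the active enzyme. In the fruit fly a tandem array of such genes on 2R supplies much of the trypsin-type digestion of dietary protein. The Jonah genes, scattered over several arms, encode serine proteases of the gut of the chymotrypsin type, and amylases, maltases, lipases and lysozymes digest the other parts of the food.

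The summed level of the 10 trypsin genes was 912 CPM in trisomic females, against 3160 CPM in normal females. Trisomic males had 943 CPM and normal males 2257 CPM. Trisomic larvae thus held 28.9% of the normal level in females and 41.8% in males. Most of this difference came from epsilonTry. Without it the sum was 516 CPM in trisomic and 1054 CPM in normal females (49.0%), and 584 CPM in trisomic and 804 CPM in normal males (72.6%). Because whole larvae were used, fewer midgut cells and less trypsin RNA per cell cannot be told apart.

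**Figure D1:**
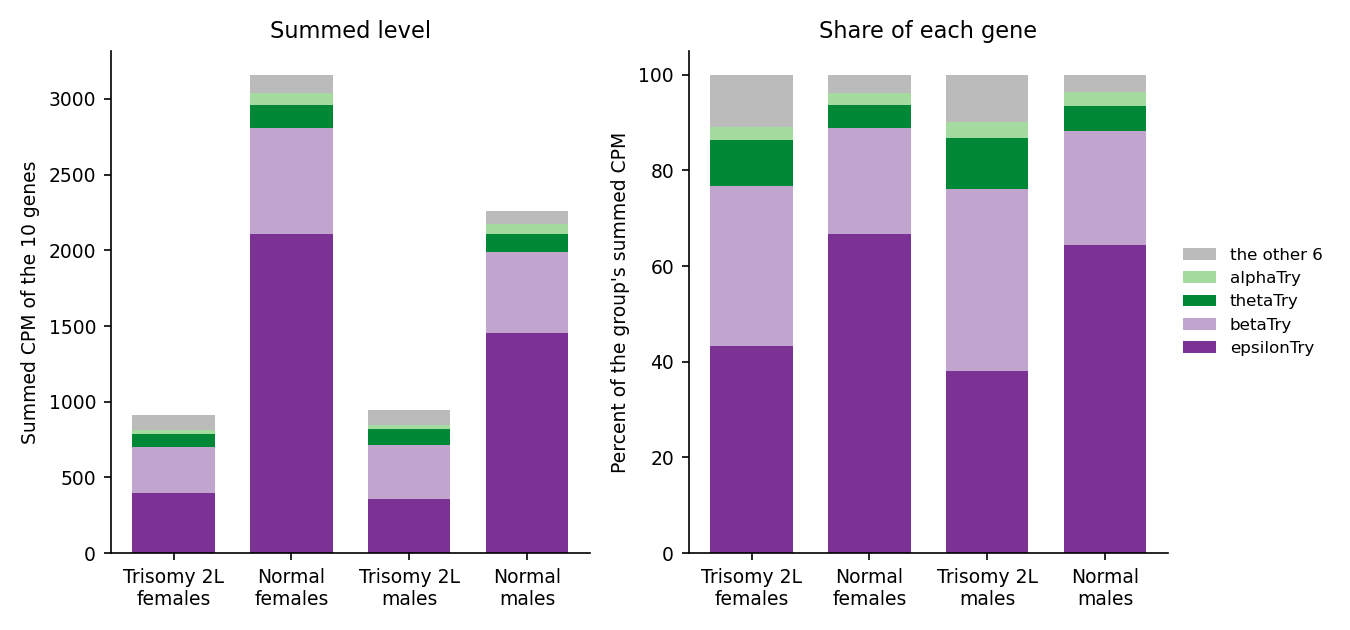
Stacked bars of the authors' mean CPM of the 10 trypsin genes in each group, as a sum (left) and as a percentage of that sum (right). The bars of trisomic larvae stand at 912 and 943 CPM, below those of normal larvae at 3160 and 2257 CPM, and the epsilonTry part is smaller in trisomic larvae in both panels.

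The make-up of the trypsin RNA differed as well. epsilonTry gave 43.4% of the summed CPM in trisomic females and 66.6% in normal females, and 38.1% in trisomic males and 64.4% in normal males. betaTry gave 33.3% in trisomic and 22.2% in normal females, and 37.9% in trisomic and 23.8% in normal males. In trisomic males betaTry and epsilonTry were therefore nearly level. Per kilobase of transcript, with betaTry taken at its longest reference transcript of 1071 bases, epsilonTry was first in every group. It stood at 477 CPM per kilobase in trisomic females, 2537 in normal females, 433 in trisomic males and 1751 in normal males. Among all genes with a known length this placed epsilonTry 126th in trisomic and 20th in normal females, and 137th in trisomic and 23rd in normal males. With the shorter betaTry transcript of 813 bases, betaTry stood at 440 CPM per kilobase in trisomic males, above epsilonTry, and the order was otherwise kept.

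On the same scale of CPM per kilobase, with the longest transcripts, the order began with epsilonTry, betaTry and thetaTry in all 4 groups. alphaTry stood at 28.5 in trisomic females, below zetaTry at 39.4 and iotaTry at 38.2, whereas in normal females it came next after thetaTry at 84.6. In trisomic males it stood at 35.2, below zetaTry at 37.2 and above iotaTry at 33.3, and in normal males it again came next at 78.1. etaTry ranged from 21.9 to 37.7 and lambdaTry from 5.92 to 10.5 over the groups. The places of alphaTry, zetaTry, iotaTry and etaTry next to each other lie close together, and with no replicate values their order cannot be held against error. gammaTry and deltaTry lay at or below 3.47 CPM per kilobase everywhere.

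**Figure D2:**
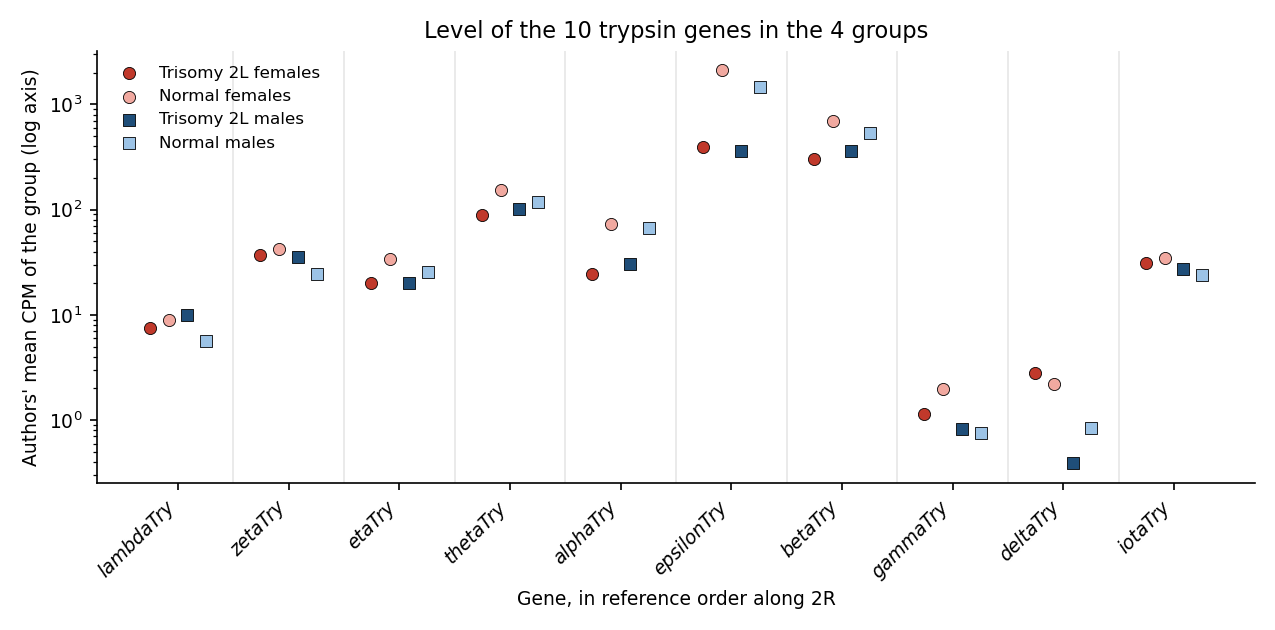
Authors' mean CPM (log axis) of each trypsin gene in trisomic females, normal females, trisomic males and normal males, with 1 point per group and genes in their order along 2R. For alphaTry, betaTry, epsilonTry, etaTry and thetaTry both trisomic points lie below both normal points, and gammaTry and deltaTry stay below 3 CPM.

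Changes are given as log2 of CPM + 1 in trisomic over normal larvae of the same sex, a scale that understates the change of low genes. Members at least 1.5-fold different, a log2 of 0.58, were counted by size. The comparison genes are the 6308 whose average over the groups reached 10 CPM. Counts of members apply no such minimum, which 7 of the 10 reach. Over the 4069 comparison genes on 2R, 3L and 3R the middle value of the change was -0.20 for females and -0.31 for males. It is called the autosomal baseline, and values relative to it are given where stated.

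Between trisomic and normal females, 5 of the 10 members were at least 1.5-fold lower and none higher, beside 18.3% lower and 15.3% higher among the comparison genes. These were epsilonTry, alphaTry, betaTry, thetaTry and etaTry. At least 2-fold lower were 3 members, beside 2.96% of the comparison genes. The median change of the 10 members was -0.61, and -0.79 over the 7 with at least 10 CPM, beside -0.06 over the comparison genes. Relative to the autosomal baseline, 4 members remained at least 1.5-fold lower, beside 7.51%, and etaTry at -0.56 was no longer among them.

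Between trisomic and normal males, 3 members (epsilonTry, alphaTry and betaTry) were at least 1.5-fold lower, beside 29.5% of the comparison genes. lambdaTry, with a mean under 10 CPM, was at least 1.5-fold higher, beside 17.0%. A count of 3 in 10 lies near the share of all genes, so in males the number of lower trypsin genes is not a result about the cluster. At least 2-fold lower were 2 members, epsilonTry and alphaTry, beside 11.0%. The median change of the members was -0.27, and -0.33 over the 7 with at least 10 CPM, beside -0.18 over the comparison genes. Relative to the autosomal baseline, 2 members were lower, beside 14.5%, and 2 higher, beside 27.6%, the second being zetaTry.

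epsilonTry stood at 396 CPM in trisomic females against 2106 CPM in normal females, and at 359 CPM in trisomic males against 1453 CPM in normal males. Both trisomic means lay far below both normal means. The log2 change was -2.41 in females and -2.01 in males, or -2.21 and -1.70 relative to the autosomal baseline. Of the 6308 comparison genes it had the 7th lowest change in females and the 39th lowest in males. Normal larvae carried 5.32 times the trisomic level in females and 4.04 times in males.

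alphaTry and betaTry flank epsilonTry on either side in the gene order. alphaTry stood at 24.5 CPM in trisomic females against 72.7 CPM in normal females, and at 30.2 CPM in trisomic males against 67.2 CPM in normal males. Its change was -1.53 in females and -1.13 in males. Both trisomic means lay below both normal means, which was so for 39.8% of the comparison genes.

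betaTry, the second most abundant member, stood at 303 CPM in trisomic females against 703 CPM in normal females, and at 358 CPM in trisomic males against 537 CPM in normal males. The change was -1.21 in females and -0.59 in males. The male value only just reached 1.5-fold and was -0.28 relative to the autosomal baseline. Again both trisomic means lay below both normal ones.

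thetaTry and etaTry are neighbours in the order, followed by alphaTry. thetaTry stood at 88.6 CPM in trisomic females against 154 CPM in normal females, and at 102 CPM in trisomic males against 118 CPM in normal males. Its change was -0.79 in females and -0.20 in males, and the male value turned to 0.11 relative to the autosomal baseline. etaTry stood at 19.9 CPM in trisomic females against 34.3 CPM in normal females, and at 20.1 CPM in trisomic males against 25.5 CPM in normal males. The change of etaTry was -0.75 in females and -0.33 in males, of which -0.02 was left in males relative to that baseline. In these genes the female difference was the larger, and the male one was close to the shift of the autosomal arms.

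With alphaTry, betaTry and epsilonTry these make 5 members whose trisomic means both lay below both normal means. Among the comparison genes 39.8% did the same, so this count does not set the cluster apart either. No member had both trisomic means above both normal means, beside 29.5% of the comparison genes.

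zetaTry, iotaTry and lambdaTry each had a slightly lower mean in trisomic than in normal females and a higher one in trisomic than in normal males. zetaTry stood at 37.3 CPM in trisomic females against 42.4 CPM in normal females, and at 35.2 CPM in trisomic males against 24.7 CPM in normal males, which gave changes of -0.18 and 0.50. iotaTry stood at 31.2 CPM in trisomic and 34.4 CPM in normal females, and at 27.2 CPM in trisomic and 23.9 CPM in normal males, with changes of -0.14 and 0.18. For zetaTry and iotaTry the lowest of the 4 means was that of normal males and the highest that of normal females. Relative to the autosomal baseline their female values turned to 0.02 and 0.06.

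lambdaTry, at the end of the array, was the weakest of the readable members. It stood at 7.58 CPM in trisomic females against 8.97 CPM in normal females, and at 9.96 CPM in trisomic males against 5.63 CPM in normal males. The changes were -0.22 in females and 0.72 in males, or -0.02 and 1.04 relative to the autosomal baseline. Its mean of 8.04 CPM over the groups lies just under the minimum that defines the comparison genes.

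gammaTry and deltaTry could not be read as separate genes. gammaTry had 1.15 CPM in trisomic and 1.98 CPM in normal females, and 0.830 CPM in trisomic and 0.753 CPM in normal males. Its row holds exactly the same values in all 4 groups as that of CG30031, the next gene in the order, whose trypsin is known to be near-identical. deltaTry, a further near-identical copy, had 2.81 CPM in trisomic females, a value that 608 transcript models share, and 2.21 CPM in normal females, shared by 70. In trisomic males it had 0.389 CPM, shared by 401, and in normal males 0.845 CPM, shared by 373. The labels do not say how these repeated values were set, so no difference of deltaTry is read as a change. How the authors counted reads that fit more than one copy is likewise not stated. Thus 7 members reached a mean of 10 CPM, and lambdaTry, gammaTry and deltaTry did not.

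The largest differences lay side by side in the array. In the reference order, taken from the release 6 assembly and used for neighbourhood only, the cluster runs lambdaTry, kappaTry, zetaTry, etaTry, thetaTry, alphaTry, epsilonTry, betaTry, gammaTry, CG30031, CG30025, deltaTry, CG13202, iotaTry. Over zetaTry, etaTry, thetaTry, alphaTry, epsilonTry and betaTry the female change was -0.18, -0.75, -0.79, -1.53, -2.41 and -1.21. In males the same genes had 0.50, -0.33, -0.20, -1.13, -2.01 and -0.59. In both sexes epsilonTry was lowest, the genes beside it came next, and zetaTry was the highest of these 6. kappaTry, a trypsin-like gene between lambdaTry and zetaTry that is not one of the 10, stood at 24.0 CPM in trisomic and 23.0 CPM in normal females, and at 28.7 CPM in trisomic and 13.9 CPM in normal males. Its changes were 0.06 and 0.99. On either side lambdaTry had -0.22 and 0.72, and zetaTry -0.18 and 0.50, so these genes shared a direction in males but not in females. CG30025 lay near the repeated values in all groups, and CG13202 was at or below 2.03 CPM. Each member is a single exon in the reference annotation, with transcripts of 810 to 1071 bases, so gene length differs little along the array.

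**Figure D3:**
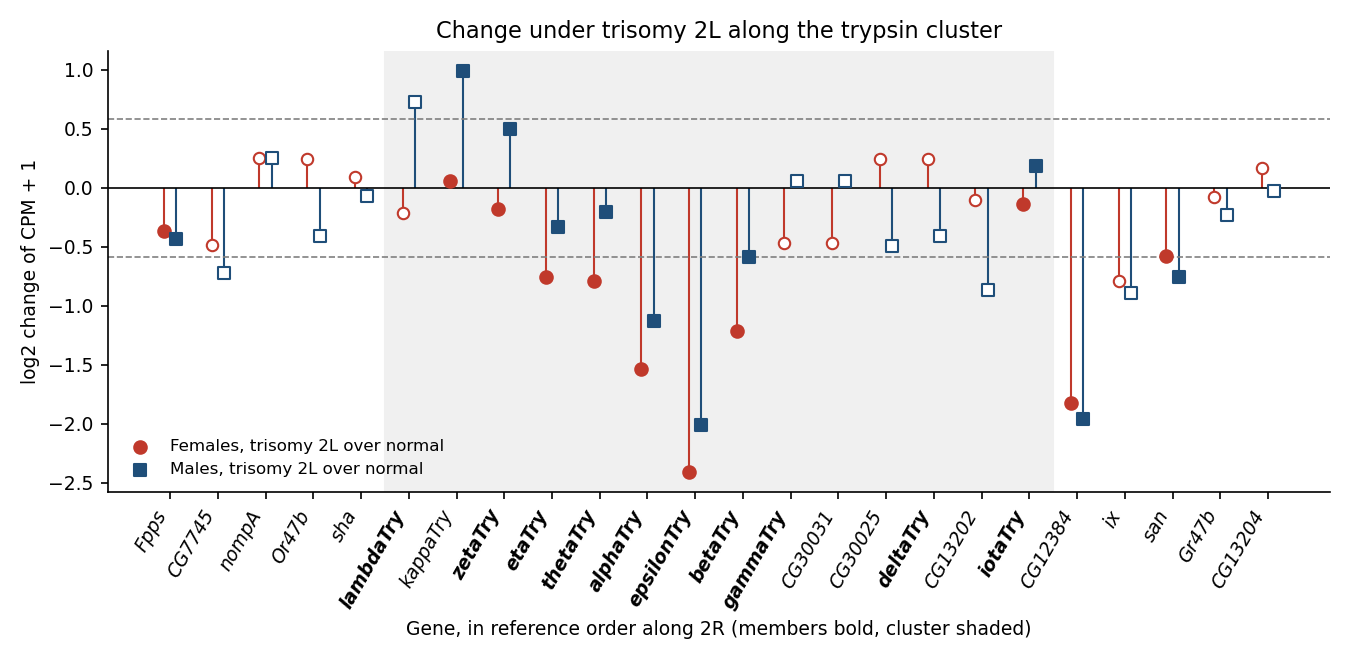
The log2 change of CPM + 1 in trisomic over normal larvae for genes in their order along 2R, females as circles and males as squares. Members are in bold, the cluster is shaded, open symbols mark genes with a mean under 10 CPM, and dashed lines mark 1.5-fold. The lowest points of the cluster are those of epsilonTry at -2.41 and -2.01, with alphaTry and betaTry beside it, while lambdaTry, kappaTry and zetaTry lie above 0 in males.

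The summed level differed more between the sexes in normal than in trisomic larvae. All 10 members had a lower mean in normal males than in normal females, beside 43.8% of the comparison genes. The 10 include gammaTry and deltaTry, which could not be read as separate genes. Among the readable members the values ran from -0.11 for alphaTry to -0.76 for zetaTry. The sum was 2257 CPM in normal males against 3160 CPM in normal females. At least 1.5-fold lower were 4 members, beside 3.68%, namely zetaTry (-0.76), lambdaTry (-0.59), gammaTry (-0.77) and deltaTry (-0.80). Only the first 2 can be read. Of the 7 members with at least 10 CPM, 1 was that much lower, zetaTry.

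In trisomic larvae the sums of the sexes were close, 943 CPM in males and 912 CPM in females. Here 5 members had a lower and 5 a higher mean in males, beside 42.1% lower and 57.9% higher among the comparison genes. Apart from deltaTry, at -1.46 on repeated values and beside 2.06% of the comparison genes, no member differed by 1.5-fold. The readable ones ranged from -0.19 for iotaTry to 0.35 for lambdaTry.

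The change under trisomy was accordingly less negative, or more positive, in males than in females for 9 members, all but deltaTry, beside 41.6% of the comparison genes. gammaTry, which could not be read as a separate gene, is among the 9. The difference between the male and the female change was 0.40 for epsilonTry, 0.41 for alphaTry, 0.43 for etaTry, 0.32 for iotaTry and 0.53 for gammaTry. It passed 1.5-fold for 4 members, beside 5.88%: thetaTry (0.59), betaTry (0.62), zetaTry (0.67) and lambdaTry (0.94). The first 3 of these are among the 7 members with at least 10 CPM. deltaTry, on repeated values, went the other way (-0.66), beside 9.50%. For each of these 9 the mean of normal males lay below that of normal females. Both changes use the same 4 group means as the sex comparisons above, so these are not separate observations.

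The 16 Jonah proteases shared this sex difference, while their sum differed less between karyotypes. Their summed level was 13941 CPM in trisomic and 17566 CPM in normal females (79.4%), and 15476 CPM in trisomic and 12083 CPM in normal males (128%). The 13 of them outside 2L summed to 9721 CPM in trisomic and 15866 CPM in normal females. In males these 13 summed to 10712 CPM in trisomic and 11030 CPM in normal larvae, so the higher male sum came from the genes on 2L. All 16 were lower in normal males than in normal females, and all 16 had the higher change in males. The sex difference was shared in part by other lists, counted at 10 CPM or more. Lower in normal males were 7 of 7 other serine proteases, 16 of 19 other digestive enzymes and 9 of 10 muscle genes. A higher male change was found in 6, 15 and 9 of these. Among the comparison genes 43.8% were lower in normal males and 41.6% had the higher male change. Of fat body and serum genes 6 of 7 were lower in normal males, and 4 of 7 had the higher male change. For sugar and activin genes both counts were 5 of 7. For midgut identity and structure genes they were 5 of 8 and 6 of 8. Of 9 glue genes 6 were lower in normal males but 1 had the higher male change. The 8 testis genes went the other way in both. Of the Jonah genes, 3 were at least 1.5-fold higher in females (beside 15.3% of the comparison genes) and 6 lower (beside 18.3%). In males 8 were higher (beside 17.0%) and 3 lower (beside 29.5%). Jon25Bii, on the trisomic arm, was highest in mean change (1.54 and 3.05), followed by Jon25Bi on the same arm (1.88 and 2.68). Jon74E (-1.74 and -1.19) and Jon65Aiii (-1.41 and -0.68) on 3L were lowest. In both sexes Jon74E lay below alphaTry, and Jon65Aiii lay between alphaTry and betaTry.

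Other trypsin-like and serine protease genes of the gut, 7 of 18 listed with at least 10 CPM, likewise had members with decreases near or beyond those of alphaTry and betaTry. yip7, on 3L, stood at 1071 CPM in trisomic against 3967 CPM in normal females, and at 1152 CPM in trisomic against 2963 CPM in normal males (-1.89 and -1.36). CG11912, on 2L itself, had changes of -1.14 and -1.62. At the other end were kappaTry and CG17571 on 2L, with -0.09 in females and 1.02 in males. The list median was -0.39 in females and 0.50 in males. In females 2 genes were lower (beside 18.3%) and none higher (beside 15.3%). In males 2 were lower (beside 29.5%) and 2 higher (beside 17.0%). Over all 18 listed genes, with no minimum, the medians were 0.055 in females and 0.027 in males. Decreases near or beyond those of alphaTry and betaTry thus occurred outside the 10 trypsin genes as well, and the difference between the lists was not tested.

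Enzymes for other nutrients stood on the opposite side. Of 25 amylase, maltase, lipase and lysozyme genes 19 had at least 10 CPM. Of these, 11 were at least 1.5-fold higher in trisomic females (beside 15.3% of the comparison genes) and 14 in trisomic males (beside 17.0%). None was lower in either sex, beside 18.3% in females and 29.5% in males. The medians were 0.94 in females and 0.91 in males. The lipase genes CG6271 (4.16 and 3.01) and CG6283 (3.41 and 3.34) were highest, and LysX (0.48 and -0.45) and mag, listed as CG5932 (-0.26 and 0.40), were lowest. Summed trypsin RNA was therefore low in trisomic larvae in which RNA of many other digestive enzymes was high. The low sum rested mainly on epsilonTry and, after it, betaTry. alphaTry added little to it, at 24.5 CPM in trisomic and 72.7 CPM in normal females. The 7 members other than alphaTry, betaTry and epsilonTry summed to 189 CPM in trisomic and 279 CPM in normal females (67.7%). In males they summed to 196 CPM in trisomic and 199 CPM in normal larvae (98.4%).

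**Figure D4:**
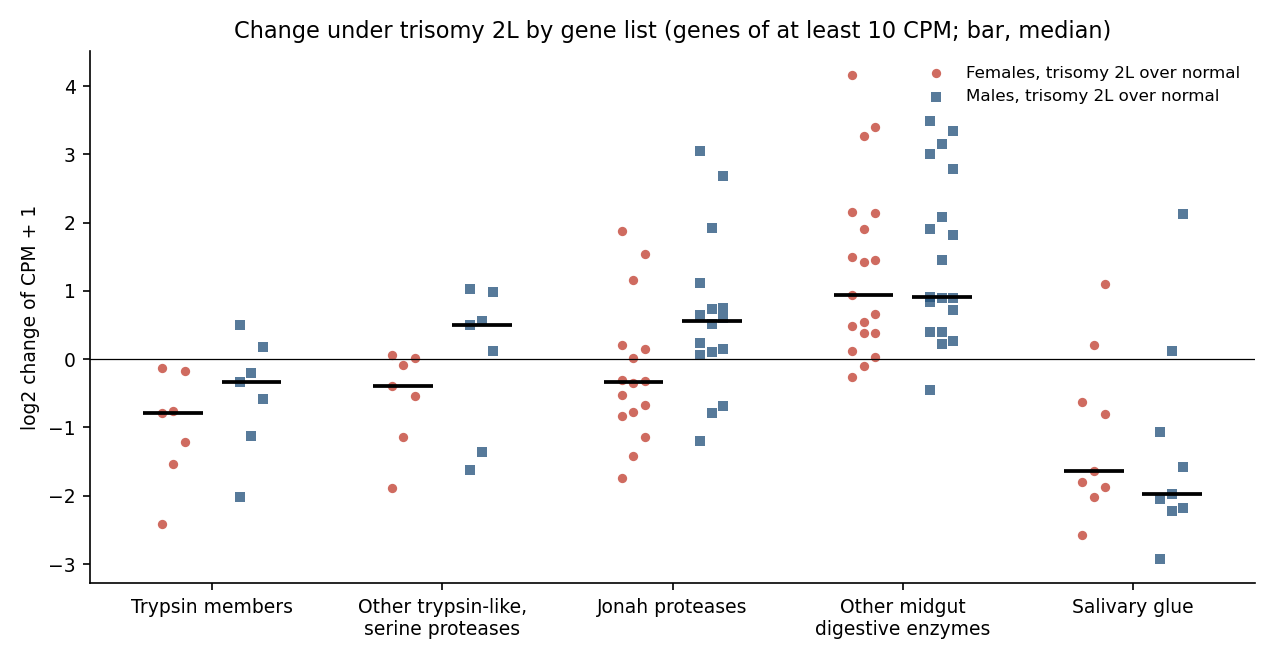
The log2 change of CPM + 1 in trisomic over normal larvae for genes with a mean of at least 10 CPM, females as circles and males as squares, with a bar at each list's median. The trypsin members reach down to -2.41 in females and -2.01 in males, while the other midgut digestive enzymes have medians of 0.94 and 0.91 and the salivary glue genes of -1.64 and -1.98.

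Markers of tissues and stage differed with karyotype too, and their part in the trypsin differences was not tested. Genes of midgut identity and structure summed to 252 CPM in trisomic and 217 CPM in normal females, and to 279 CPM in trisomic and 207 CPM in normal males. This sum leaned on Myo31DF. Without that gene it was 138 CPM in trisomic and 153 CPM in normal females, and 157 CPM in trisomic and 150 CPM in normal males. Over the 7 listed genes outside 2L it was 96.4 CPM in trisomic and 116 CPM in normal females, and 105 CPM in trisomic and 110 CPM in normal males. Of its 8 genes with at least 10 CPM, 3 were higher (beside 15.3%) and 2 lower (beside 18.3%) in females. In males 4 were higher (beside 17.0%) and 1 lower (beside 29.5%). The highest were Vha100-4, a proton pump subunit gene listed as CG7678 on 3R (0.70 and 1.45), and Myo31DF, an unconventional myosin gene of enterocytes on 2L (0.83 and 1.08). The lowest were pros, a marker of enteroendocrine and nerve cells (-0.62 and -1.43), and mex1, a midgut marker on 3L (-0.69 and -0.30). mex1 stood at 38.7 CPM in trisomic and 63.3 CPM in normal females, and at 43.5 CPM in trisomic and 53.6 CPM in normal males. Salivary glue genes, which larvae switch on under ecdysone late in the third instar, summed to 7125 CPM in trisomic and 19669 CPM in normal females, and to 5370 CPM in trisomic and 18408 CPM in normal males. The glue medians were -1.64 in females and -1.98 in males. In each sex 7 of 9 genes were at least 1.5-fold lower, beside 18.3% in females and 29.5% in males. In each sex 1 was higher, beside 15.3% in females and 17.0% in males. Muscle genes summed to 7233 CPM in trisomic and 4640 CPM in normal females, and to 8605 CPM in trisomic and 3612 CPM in normal males. Fat body and serum genes summed to 73625 CPM in trisomic and 63133 CPM in normal females, and to 56075 CPM in trisomic and 49201 CPM in normal males. Testis genes summed to 161 CPM in trisomic and 486 CPM in normal males, and to 5.58 CPM in trisomic and 3.36 CPM in normal females.

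epsilonTry was both the most abundant member and the one with the largest change between karyotypes. Over the 4 group means, each centred on its own log2 average, the genes outside the cluster nearest to it by Euclidean distance were CG11893 on 3R (0.08), CG10513 on 3R (0.16) and CG9040 on 3L (0.20). CG11893 stood at 6.70 CPM in trisomic and 38.3 CPM in normal females, and at 6.06 CPM in trisomic and 28.4 CPM in normal males. Likeness over 4 means is a weak description, because few values define it.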

How the data were processed

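RNA was isolated from whole larvae with TRIZOL and made into TruSeq libraries, per the labels' protocols. TopHat, HTSeq and the build dm3 appear, without version or role, in the submitters' processing notes. Annotation, strand setting and the handling of reads that fit several genes are not given there or in the labels. The deposited values are CPM, which the authors averaged over the 4 replicates of a group, per the file headers. Depth per sample is unknown, so no interval was computed. The autosomal (19047 rows) and X (3691 rows) tables together share 1 scale.

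Rows were averaged to 1 value per gene. Changes are log2 of CPM + 1. Genes averaging 10 CPM or more were counted at 1.5-fold. No tests on counts, replicate blocks or omission of replicates were possible with group means. Lengths (97.0% of genes matched) come from Ensembl release 115 and gene order and older names from RefSeq, both of a later assembly than dm3. The counting was tested on simulated data.

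The members, 9 gene lists and alternatives were chosen with earlier results of these data known. Named by rule were all members, the genes between them, the 2 highest and 2 lowest of each list by mean change of both sexes and the 3 nearest to epsilonTry in pattern; for the regulator, glue, muscle, fat body and testis lists mainly sums and counts are printed. The 5 outside neighbours on each side and the readings without gammaTry, deltaTry, epsilonTry, Myo31DF or midgut genes on 2L were added later. Also added later were the Jonah sum without genes on 2L and the trypsin sum without alphaTry, betaTry and epsilonTry. Python 3.11.15, numpy 2.4.6, pandas 2.3.3 and matplotlib 3.10.9 were used.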

Additional observations from a re-analysis of the deposited data

Results flagged for a closer look

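The trisomic change ran in opposite directions in the sexes for zetaTry and lambdaTry, and the male and female changes differed by more than 1.5-fold. zetaTry was slightly lower in trisomic than in normal females (-0.18) and higher in trisomic than in normal males (0.50), a difference of 0.67 on the log2 scale. lambdaTry had -0.22 in females and 0.72 in males, a difference of 0.94, at means under 10 CPM. Relative to the autosomal baseline zetaTry had 0.02 in females and 0.81 in males, and lambdaTry -0.02 and 1.04. The female values then lay near 0, and the directions were no longer opposite for zetaTry. Neither difference was tested, because each group has a single mean. The pattern was not particular to these members. Jon99Fi (-0.77 in females and 0.65 in males) and CG8299 (-0.39 and 0.56) had it too, while Jon74E was lower in both sexes. A male change at least 1.5-fold above the female one was found in 11 of 16 Jonah genes, beside 5.88% of the comparison genes. It was found in 4 of 7 other serine proteases with at least 10 CPM.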

How the results depend on the processing

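No paired analysis was possible because the files hold 1 mean per group, and for the same reason no replicate was left out. Of 300 member values under alternatives, 24 dropped below the threshold, 6 passed it, 4 turned sign under 1.5-fold and 0 turned sign past it. The choice among rows could change nothing, because each member has 1 row. The 300 include 50 values from the highest row and 50 from the sum over rows, which carry no information. With a 2-fold threshold 3 members were lower in trisomic females, 0 were higher in trisomic males, 0 were lower in normal males than in normal females and 0 had a male change above or below the female one by that much. With a pseudocount of 5 there were 0 higher in trisomic males, 1 lower in normal males than in normal females, 0 lower in trisomic males than in trisomic females and 0 with the smaller change in males. Relative to the autosomal baseline, 2 were higher in trisomic males and 0 had the smaller change in males. Among the members with at least 10 CPM, 0 were higher in trisomic males, 1 was lower in normal males than in normal females, 0 were lower in trisomic males than in trisomic females and 0 had the smaller change in males. Without gammaTry and deltaTry, 2 were lower in normal males than in normal females, 0 in trisomic males than in trisomic females, and 0 had the smaller change in males. The log2 ratio of the male sums was -1.26 and, without epsilonTry, -0.46, under 1.5-fold. With no minimum the median of the other serine proteases was 0.055 in females and 0.027 in males. Relative to the autosomal baseline, their male median was 0.81, the Jonah male median 0.87 and the median of the sugar and activin list in females 0.017. The cause of these shifts was not tested. Values under about 3 CPM are limited by the repeated values.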

Other observations

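Genes of the sugar and activin signals that act on digestive enzyme transcription were measured in the same larvae. Of the 7 listed, 2 were at least 1.5-fold lower in trisomic females and none in trisomic males, beside 18.3% and 29.5% of the comparison genes. A count of 2 in 7 is not far from that share, and the genes are given as values only. sug (sugarbabe), a zinc finger gene induced by sugar, stood at 25.8 CPM in trisomic against 50.7 CPM in normal females, and at 28.8 CPM in trisomic against 35.0 CPM in normal males. bigmax, whose product partners Mondo, stood at 11.5 CPM in trisomic against 19.4 CPM in normal females, and at 9.47 CPM in trisomic against 12.0 CPM in normal males. The activin-type ligand gene daw (-0.10 and 0.14) and the signal transducer gene Smox (0.16 and 0.13) differed little.

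Outside the array, 5 neighbouring genes on each side were read as context. At least 1.5-fold lower were 2 of these 10 in females and 4 in males, and none was higher. Among the comparison genes 18.3% and 29.5% were as much lower, so these counts lie near the background. Most of the 10 neighbours had a mean under 10 CPM, unlike the comparison genes, so this comparison is rough. The gene next to iotaTry, CG12384, stood at 28.2 CPM in trisomic against 102 CPM in normal females, and at 24.7 CPM in trisomic against 99.1 CPM in normal males, log2 changes of -1.82 and -1.96. It is named after its values were seen. iotaTry itself lies between it and the genes near the repeated values and differed by -0.14 and 0.18.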
